A study of Mus musculus with 5 samples.

Results

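The 37 genes described here encode the folding, disulfide bond forming, translocation, degradation and stress sensing machinery of the endoplasmic reticulum (ER). They were taken by name from a table of 38924 genes, which writes names in capitals, and the list was drawn up with earlier results of these data known. The chaperones were HSPA5, HSP90B1, HYOU1, DNAJB9, DNAJB11, DNAJC3, SDF2L1, CRELD2, MANF, CALR and CANX, and the disulfide isomerases PDIA3, PDIA4, PDIA6, P4HB, TXNDC5 and TXNDC11. The translocon genes were SEC61A1, SEC61B, SEC61G, SSR1, SSR2, SSR3 and SSR4, and the degradation genes EDEM1, EDEM2, HERPUD1, SEL1L, SYVN1, DERL1, DERL2 and DERL3. The sensors and transcription factors were ERN1, EIF2AK3, ATF6, ATF4 and DDIT3. All 37 were found once each, and all 37 had a mean value of at least 10 normalized counts, the minimum for testing that 13242 genes met. RNA was sequenced from germinal center B cells of the spleen of 12-week-old mice that had received sheep red blood cells 7 days earlier, with cells purified by sorting. The DKO group was relbfl/flnfkb2fl/flCg1-Cre (2 libraries), with Relb and Nfkb2 floxed, and the WT group was Cg1-Cre littermates (3 libraries). Both groups carried Cg1-Cre, whose recombinase is made once a B cell transcribes the IgG1 constant region, and the series title describes the sorted cells as eGFP+. The labels do not say how many animals a library holds, so the p-values measure only the spread between these libraries, which may be technical.

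Proteins that enter the ER are threaded through the SEC61 channel, folded by chaperones of the HSP70, HSP90 and lectin type, and joined by disulfide bonds through the protein disulfide isomerases. Proteins that do not fold are sent back to the cytosol and degraded. When unfolded protein accumulates, the sensors IRE1 (Ern1), PERK (Eif2ak3) and ATF6 start the unfolded protein response, in which the factors ATF6 and XBP1 raise chaperone and degradation genes and PERK acts through ATF4 and CHOP (Ddit3). B cells are known to expand this machinery greatly when they become antibody-secreting plasma cells.

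The libraries held 35154064 and 48178578 reads in DKO and between 33953377 and 57582464 in WT, of which 17701685 and 17601096 in DKO and between 15397317 and 15477691 in WT lay outside the mitochondrial genome. Relb retained 40.2% of the WT mean in DKO replicate 1 and 7.59% in DKO replicate 2, and Nfkb2 52.5% and 13.0%. The germinal center markers were present. The sum of 8 was 115546 and 100854 normalized counts in DKO and 180438, 111271 and 88544 in WT, most of it Mki67, and 7 of the 8 were lower in DKO. Bcl6 was at 10263 and 9887 in DKO and between 9681 and 11763 in WT, whereas Rgs13 was at 1476 and 1990 in DKO and 8381, 3777 and 4727 in WT (adjusted p = 0.00131 in DESeq2 and 0.768 in limma). Other cell types were unevenly represented. The summed value of 10 T cell markers, of which 8 reached the minimum, was 2064 and 1358 in DKO and 1427, 2435 and 1525 in WT, with Cd2 making up most of it. Cd3e stood at 163 and 26.4 in DKO and at 10.7, 363 and 7.69 in WT, and Cd3g and Trat1 were at 0 in some libraries. The sum of 5 naive B cell markers was 14465 and 6934 in DKO and 4979, 16582 and 8640 in WT. DKO replicate 1 and WT replicate 2 therefore carried the most transcripts of other lymphocytes. Myeloid markers (7, of which 5 reached the minimum) summed to 1104 and 421 in DKO and 1027, 819 and 110 in WT. Erythroid markers (3, of which 2 reached the minimum) summed to 97.2 and 26.4 in DKO and 18.2, 14.4 and 14.4 in WT. The sum of 9 plasma cell genes, most of it Ighm, was 97452 and 110043 in DKO and 93869, 102162 and 132426 in WT. Within that list Tnfrsf17 was at 0 in 4 of the 5 libraries, and Prdm1 was at 113 and 137 in DKO and 926, 127 and 162 in WT. WT replicate 1 thus had the highest Prdm1 and the lowest sum. Mitochondrial reads made up 49.6% and 63.5% of the DKO libraries and 65.7%, 54.5% and 73.1% of the WT libraries.

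In WT cells the level per length differed widely among the members, and 3 genes of folding stood near the top of all genes. Values per kilobase (kb) of exon put Hsp90b1, which encodes the ER member of the HSP90 family, first of the 36 members with a length, at 3453 ± 723 normalized counts per kb (SD, n = 3). Pdia3, a disulfide isomerase that works with the lectin chaperones, followed at 3065 ± 620.1, and Hspa5, which encodes BiP, the HSP70 of the ER, at 2586 ± 658. The means of neighbours in this order lay within the sum of their SDs, and these 3 genes stood at percentiles 99.1, 98.9 and 98.7 of all tested genes with a length. At the other end Ern1, the gene of the sensor IRE1, had 17.1 ± 4.79 normalized counts per kb, at percentile 20.4. The other sensor genes were higher, Eif2ak3 at 350 ± 41.3 and Atf6 at 248 ± 16.6 per kb. The small channel subunits Sec61b and Sec61g had 85.0 ± 24.9 and 66.1 ± 33.8 per kb, against 246 ± 44.0 for the pore-forming subunit Sec61a1. Their lengths, 1.271, 2.464 and 6.732 kb, are the union of all annotated exons, which can exceed the transcript made. Sec61g also has near-identical copies, so this order is uncertain. The spread between WT libraries ran from a coefficient of variation of 3.09% for Derl1 to 51.1% for Sec61g.

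**Figure D1:**
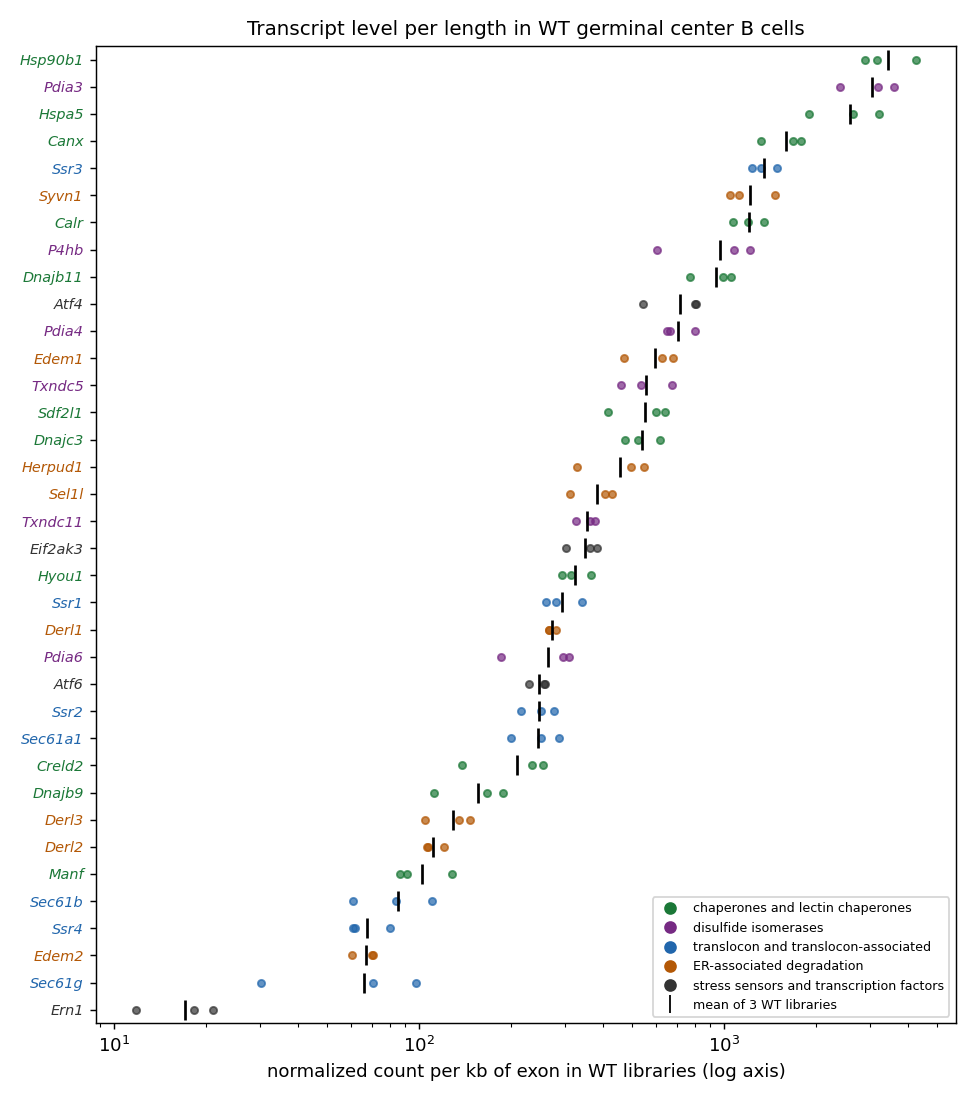
Normalized counts per kb of exon in the 3 WT libraries (log axis, 1 point per library, vertical tick at the mean) for the 36 members with a length, ordered by mean and coloured by role. Hsp90b1, Pdia3 and Hspa5 lead with means of 3453, 3065 and 2586, and Ern1 is last at 17.1.

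Many of these genes are known to share the ER stress element in their promoters, a CCAAT box and a CCACG box at a fixed distance, through which ATF6 and XBP1 act. The table of RefSeq promoters (GRCm38.p6, 250 bases before to 50 after each start) held 31 of the 37 members, and Derl1, Manf, Ssr2, Sec61a1, Atf6 and Hyou1 had no entry. The element, CCAAT followed by any 9 bases and CCACG and searched on both strands, was found in 9 of the 31 members (29.0%) and in 0.137% of all 27025 genes in the table. Its variant, ATTGG followed by any 1 base and CCACG, was found in 2 of 31 (6.45%), Herpud1 and Dnajb11, and in 0.0444% of all genes. The XBP1-type element TGACGTGG was found in 2 members, Txndc5 and Txndc11, and in 0.714% of all genes. The short box CCACG, which overlaps the first pair of motifs by construction, was present in 25 of 31 members (80.6%) and in 35.5% of all genes. The matches are given because they group the members by a property that does not depend on their expression. Each is written 5′ to 3′ along the strand that carries the motif, with the fixed letters of the motif in capitals.
Hspa5, chr2:34772020-34772048, + strand: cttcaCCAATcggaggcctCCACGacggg
Hsp90b1, chr10:86705633-86705661, − strand: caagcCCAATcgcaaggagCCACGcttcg
Hsp90b1, chr10:86705528-86705556, + strand: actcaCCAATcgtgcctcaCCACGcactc
Calr, chr8:84847070-84847098, + strand: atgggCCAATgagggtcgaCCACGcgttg
Canx, chr11:50325795-50325823, − strand: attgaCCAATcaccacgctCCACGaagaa
Dnajc3, chr14:118937822-118937850, + strand: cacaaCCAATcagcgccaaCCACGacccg
Creld2, chr15:88819515-88819543, − strand: gtggaCCAATtgaggctcgCCACGagaag
Pdia6, chr12:17266486-17266514, + strand: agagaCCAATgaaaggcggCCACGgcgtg
Derl3, chr10:75893237-75893265, − strand: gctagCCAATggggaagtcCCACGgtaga
Syvn1, chr19:6046527-6046555, + strand: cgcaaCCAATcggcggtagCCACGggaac
Herpud1, chr8:94386372-94386392, + strand: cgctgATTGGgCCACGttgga
Dnajb11, chr16:22857847-22857867, + strand: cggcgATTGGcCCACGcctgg

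The promoters of Hspa5 and Hsp90b1, the genes of the HSP70 and HSP90 of the ER, show where the exact matches lie. The 250 bases before the start are given along the gene's strand, with the fixed letters in capitals. A match on the opposite strand reads as its reverse complement. Hspa5 has 1 exact match, with 46 bases between it and the start, and Hsp90b1 has 2, in opposite orientations, with 193 and 88 bases between. Inexact matches were not searched, so these promoters may hold further elements.
Hspa5, chr2:34771840-34772089, + strand: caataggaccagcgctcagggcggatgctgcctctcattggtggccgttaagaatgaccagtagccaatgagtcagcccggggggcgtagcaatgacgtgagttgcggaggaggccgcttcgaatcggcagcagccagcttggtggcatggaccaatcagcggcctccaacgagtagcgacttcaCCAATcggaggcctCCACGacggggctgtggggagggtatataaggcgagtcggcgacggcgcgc
Hsp90b1, chr10:86705445-86705694, − strand: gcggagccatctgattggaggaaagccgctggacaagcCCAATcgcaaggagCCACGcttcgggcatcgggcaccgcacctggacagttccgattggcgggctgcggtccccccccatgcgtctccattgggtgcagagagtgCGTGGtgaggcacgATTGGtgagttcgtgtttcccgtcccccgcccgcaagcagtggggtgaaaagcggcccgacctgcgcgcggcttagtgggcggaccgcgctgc

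The comparison of DKO with WT asks how these transcripts stand in germinal center B cells with Relb and Nfkb2 targeted by Cg1-Cre. Most chaperone and isomerase genes had lower values in DKO, and no single gene passed the test. Of the 37 members, 26 had a negative and 11 a positive log2 fold change (DKO over WT, on the log2(value + 1) scale), with a median of −0.18, while 50% of the 13242 genes tested were lower and their median was 0.00. In limma's moderated test with Benjamini-Hochberg adjustment over all genes, 0 of 37 members passed the threshold of 0.05, and 0% of all genes did (smallest adjusted p = 0.823 among members and 0.148 among all genes). At an unadjusted p under 0.05 there were 4 members lower and 0 higher, against 2.37% of all genes lower and 3.69% higher. Neither edgeR nor DESeq2 on the recovered reads called a member, with smallest adjusted p of 0.856 and 0.119, where edgeR called 0% and DESeq2 0.219% of all genes. In 9 members both DKO values lay below all WT values, where 11% of all genes did, and in 2 both lay above, where 12.5% did (23.4% in all). The bulk measurement cannot separate fewer cells rich in these transcripts from less transcript per cell.

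**Figure D2:**
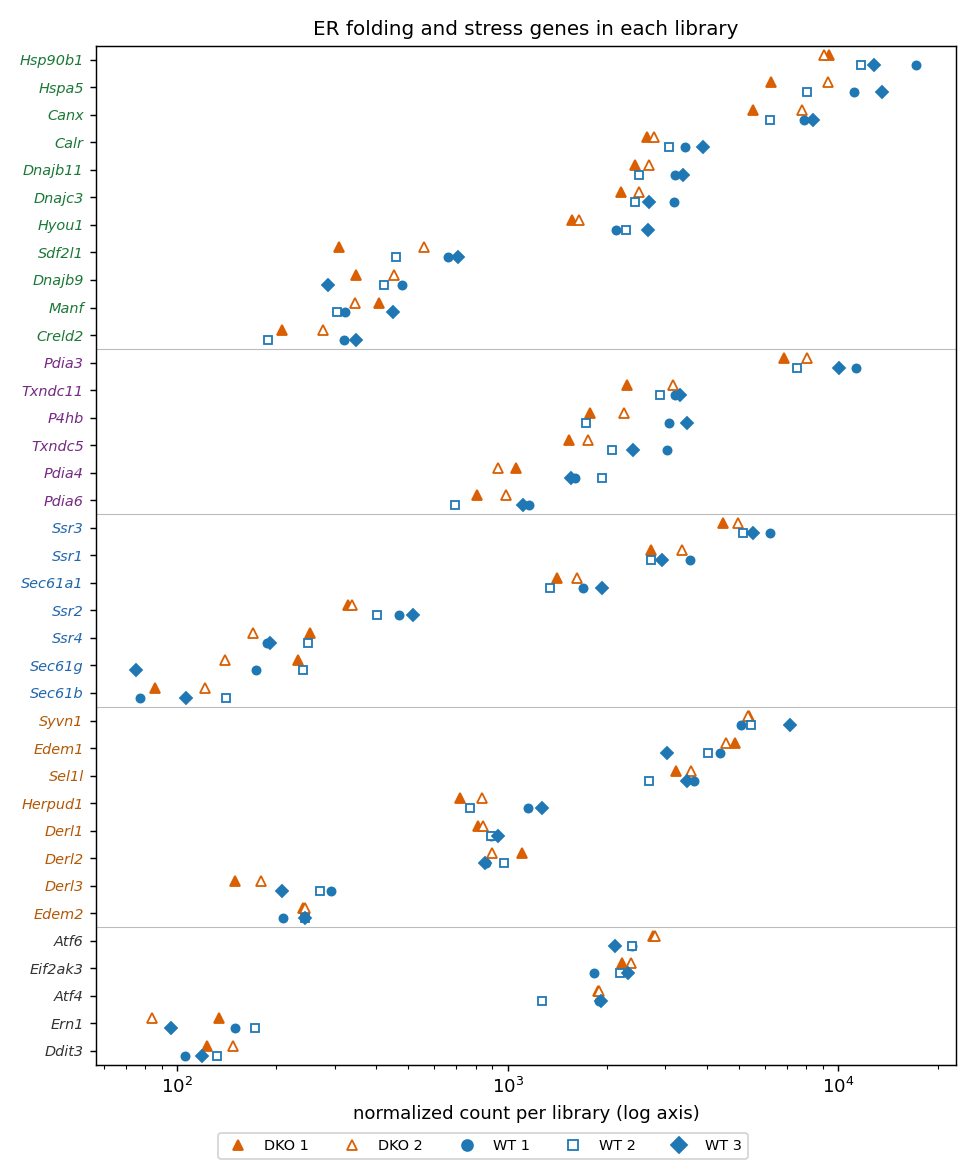
Normalized counts of the 37 members in each library (log axis), with 2 DKO and 3 WT points per gene and lines between the role groups, from the top chaperones, disulfide isomerases, translocon, ER-associated degradation, and sensors with transcription factors. For Hsp90b1, Hyou1, Calr, Pdia4 and Txndc5 both DKO points lie below all WT points, and for Hspa5 and Pdia3 a DKO point falls among them.

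Among the 11 chaperone genes, 9 had lower and 2 higher means in DKO, with a median log2 fold change of −0.24. Without DKO replicate 1 that median was −0.13, without DKO replicate 2 it was −0.40 and without WT replicate 2 it was −0.44. Hsp90b1 stood at 9392 and 9059 normalized counts in DKO, against 17229.6, 11723 and 12809.7 in WT, and both DKO libraries lay below the lowest WT library. Its log2 fold change was −0.57 ± 0.23 (SE; adjusted p = 0.823, limma). Hyou1 encodes the large HSP70-like partner that exchanges nucleotide on BiP. It was at 1570.1 and 1639.5 in DKO and at 2122, 2277 and 2651 in WT, again without overlap, differing by −0.54 ± 0.19 on the log2 scale (adjusted p = 0.823, limma). Calr, the soluble lectin chaperone calreticulin, was at 2632 and 2774 in DKO and 3438, 3078 and 3898 in WT (−0.35 ± 0.19 on the log2 scale, adjusted p = 0.864, limma). Near-identical sequence is annotated elsewhere for Calr (Calr-ps) and Dnajb9 (Gm6568), and in an overlapping gene on the opposite strand for Hsp90b1 (1810014B01Rik) and Txndc5 (Bmp6), so the counts of these 4 genes are uncertain.

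Hspa5, the gene of BiP, overlapped between genotypes. It was at 6260.4 and 9291 in DKO and at 11170.2, 8046 and 13599 in WT, so that WT replicate 2 lay between the DKO libraries. Its log2 fold change was −0.49 ± 0.28 (adjusted p = 0.871, limma). Sdf2l1, which acts with the BiP cochaperone ERdj3 (Dnajb11), showed the same arrangement, with 308 and 559 in DKO and 662, 461 and 707 in WT (−0.53 ± 0.32 on the log2 scale). In both genes DKO replicate 1 was the lowest of the 5 libraries, and without it the log2 fold changes were −0.20 for Hspa5 and −0.10 for Sdf2l1. The J-domain cochaperones of BiP, Dnajb11, Dnajc3 and Dnajb9, averaged 84.0%, 85.3% and 100.9% of their WT means in DKO. The membrane lectin chaperone Canx averaged 88.8%, Creld2, an ER protein induced by stress, 84.9%, and Manf, a stress-induced ER protein that can be secreted, 104.9%, each with overlap between genotypes.

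All 6 disulfide isomerase genes had lower means in DKO, with a median log2 fold change of −0.38. Pdia4, also called ERp72, had the smallest p of the 37 members. It stood at 1062 and 934 normalized counts in DKO and at 1595, 1923 and 1555 in WT, and the highest DKO library was well under the lowest WT library. Its log2 fold change was −0.76 ± 0.20 (unadjusted p = 0.00477, adjusted p = 0.823, limma), and 0.119 was its adjusted p in DESeq2. Txndc5, a thioredoxin-domain isomerase abundant in plasma cells, was at 1529 and 1750.2 in DKO and 3029, 2069 and 2397 in WT, also without overlap (−0.59 ± 0.22 on the log2 scale, adjusted p = 0.823, limma).

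The remaining isomerases overlapped between genotypes. Pdia3 was at 6836 and 8042 in DKO and 11337, 7505 and 10016 in WT, differing by −0.35 ± 0.23 on the log2 scale (adjusted p = 0.877, limma). P4hb, the gene of the classical protein disulfide isomerase, was at 1772 and 2256 in DKO and 3081, 1722 and 3491 in WT (−0.40 ± 0.31 on the log2 scale). In P4hb and Pdia6 WT replicate 2 was the lowest of all 5 libraries. Pdia6 and Txndc11, a membrane-bound family member linked to degradation, averaged 90.7% and 86.8% of their WT means in DKO. Without DKO replicate 1, 4 of the 6 genes were lower and the median was −0.23, and without WT replicate 1, 5 of 6 were lower. Without WT replicate 2 the median was −0.59.

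The channel that admits proteins to the ER showed smaller differences. Of its 7 genes 6 had lower and 1 higher fitted values in DKO, with a median log2 fold change of −0.04 that was −0.21 without DKO replicate 2. Ssr2, a subunit of the translocon-associated protein complex, was at 328 and 339 in DKO and at 468, 401 and 516 in WT, without overlap (−0.46 ± 0.24, adjusted p = 0.858, limma). Ssr3 of the same complex was at 4465 and 4988 in DKO and 6201, 5132 and 5533 in WT, also without overlap but with a narrow gap (−0.25 ± 0.19, adjusted p = 0.878, limma). The other subunits of that complex did not share this pattern. Ssr1 averaged 99.1% and Ssr4 101.0% of the WT mean in DKO, and Ssr4 was at 252 and 170.1 in DKO and 187, 248.7 and 191 in WT, with the DKO libraries spanning the WT range. Ssr1 lay between 2711 and 3568 in all 5 libraries.

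Among the channel subunits, Sec61a1 averaged 91.7% and Sec61b 95.9% of the WT mean in DKO, with wide overlap. Sec61g was at 232 and 140 in DKO and at 173, 240.4 and 75.0 in WT, the widest spread of the members (0.30 ± 0.49 on the log2 scale, adjusted p = 0.938, limma). Its sign turned negative without DKO replicate 1 or WT replicate 3. Sec61g has 3 near-identical copies in the annotation (Gm10177, Gm11575 and Gm16412), so its counts are uncertain.

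Degradation genes were divided, with 4 lower and 4 higher in DKO and a median log2 fold change of −0.03, which was 0.06 without WT replicate 3 and −0.10 without WT replicate 2. Derl3, a derlin of the degradation channel known from secretory cells, was at 150 and 180.1 in DKO and 292, 270.3 and 209 in WT, without overlap (−0.63 ± 0.29, adjusted p = 0.832, limma). Its relatives stood differently. Derl1 was at 815 and 845 in DKO and 889, 890.4 and 938 in WT, a small gap without overlap (−0.13 ± 0.20), and a near-identical copy, Gm35638, is annotated. Derl2 averaged 111.7% of the WT mean in DKO.

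Edem1, which directs glycoproteins with trimmed mannose to degradation, was 1 of 2 members above all WT values, at 4882 and 4585 in DKO and 4390.4, 4032 and 3040.5 in WT (0.33 ± 0.22, adjusted p = 0.877, limma). After the correction for transcript length and GC content its log2 fold change was 0.18. Herpud1, a stress-induced membrane protein of the degradation complex, was at 719 and 838 in DKO and 1156, 769 and 1271 in WT, with WT replicate 2 between the DKO libraries (−0.42 ± 0.26, adjusted p = 0.871, limma). The ligase gene Syvn1 (HRD1), its partner Sel1l and Edem2 averaged 90.8%, 104.1% and 104.2% of the WT mean in DKO and overlapped between genotypes.

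Sensors and transcription factors had higher means in DKO in 4 of 5 genes, with a median log2 fold change of 0.18. It was 0.08 without DKO replicate 2, 0.11 without WT replicate 1 and 0.09 after the length and GC correction. Atf6 was at 2751 and 2788 in DKO and 2382, 2377 and 2114 in WT, both DKO values above all WT values (0.28 ± 0.18, adjusted p = 0.877, limma), and its log2 fold change was 0.08 after the length and GC correction. Ern1 was the member of this group with a lower mean, at 134 and 84.2 in DKO and 150, 172 and 96.1 in WT, with overlap (−0.35 ± 0.39, adjusted p = 0.911, limma). Its log2 fold change was −0.02 without DKO replicate 2 and −0.68 without DKO replicate 1. Atf4, the factor translated when PERK is active, was at 1879 and 1891 in DKO and 1886, 1274 and 1909 in WT. Without WT replicate 2 its log2 fold change of 0.18 ± 0.23 became −0.0095. Eif2ak3 averaged 108.6% of the WT mean in DKO and Ddit3, the gene of CHOP, 113.9%, and Ddit3 did not exceed 148 normalized counts in any library. Genes on the opposite strand overlap exons of Ddit3 and Eif2ak3 and of 11 other members, and the use of strand in counting is not given in the sources used here.

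**Figure D3:**
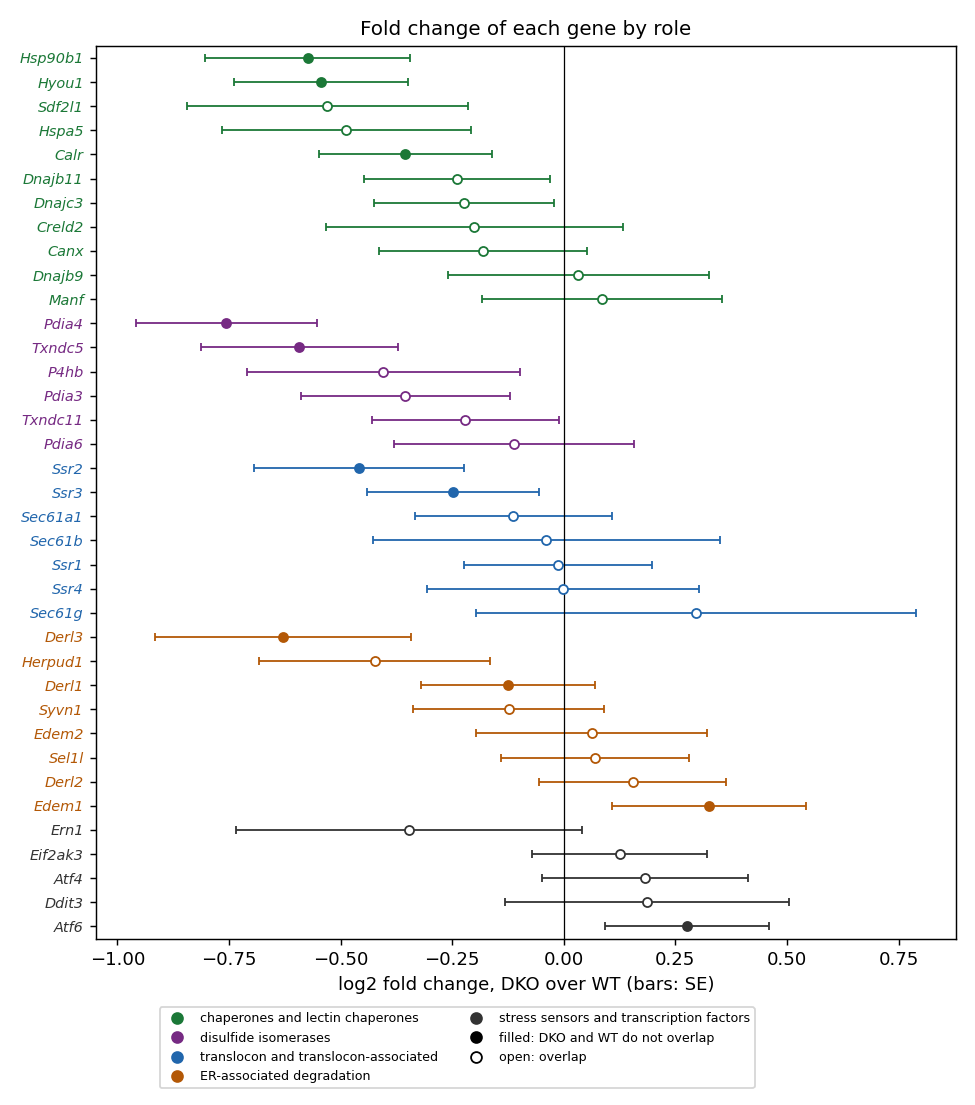
Log2 fold change of DKO over WT with its SE for each of the 37 members, by role and then by size, with filled points where the 2 DKO and 3 WT values do not overlap. All 6 disulfide isomerases lie below 0, led by Pdia4 at −0.76, and 4 of the 5 sensors and transcription factors lie above 0.

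Grouped by the promoter match shown above, all 11 members with an ER stress element or its variant had a lower mean in DKO, with fitted log2 fold changes between −0.63 (Derl3) and −0.11 (Pdia6) and a median of −0.24. Of the 20 members with a promoter entry and neither match, 11 were lower and 9 higher, with a median of −0.01 and a range of −0.76 (Pdia4) to 0.33 (Edem1). In 3 of the 11 and 3 of the 20 both DKO values lay below all WT values, where 11% of all genes did. All 11 were lower under each scaling between libraries and in edgeR and DESeq2. Without DKO replicate 1 the count was 8 of 11, and without WT replicate 1 or WT replicate 3 it was 10 of 11. The replicate number as a block gives the same fold changes as leaving out WT replicate 3, so its 10 of 11 adds nothing. The mean deviation of the 11 genes from their own means over libraries was −0.31 and −0.08 in DKO and 0.26, −0.14 and 0.27 in WT (log2), so that DKO replicate 2 lay above WT replicate 2. Match and role coincide in part. Most of the 11 are chaperones, while all sensors, transcription factors and translocon genes with a promoter entry have neither match. Among chaperones and isomerases with neither match, Pdia4, Txndc5, Sdf2l1, P4hb, Pdia3 and Txndc11 lay between −0.76 and −0.22, and Dnajb9 was at 0.03. The grouping therefore does not separate the element from the role, and the 2 groups of genes were not compared by a test.

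**Figure D4:**
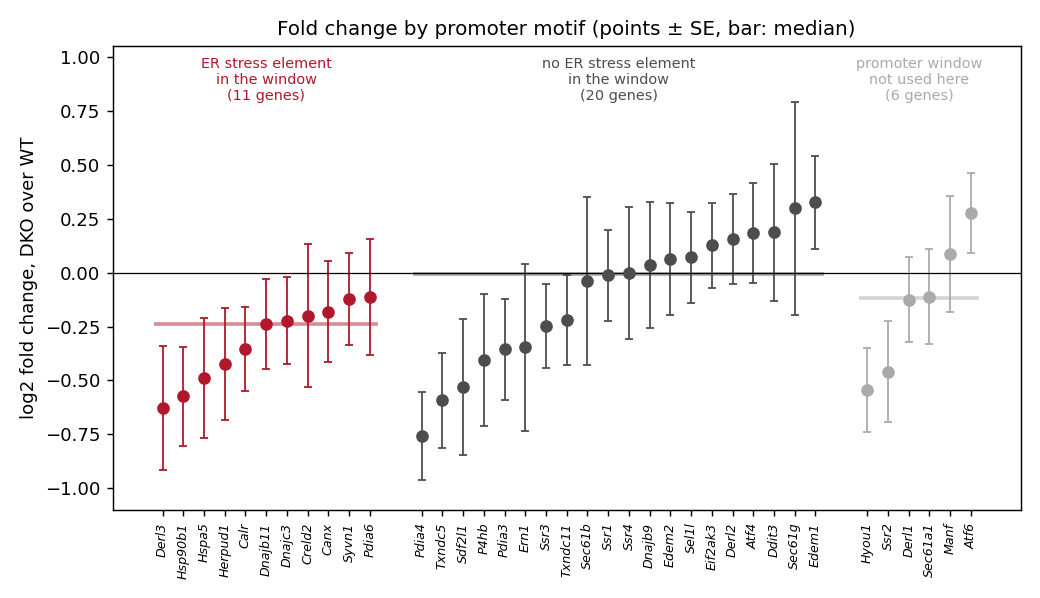
Log2 fold change of DKO over WT (points with SE, horizontal bar at the median) for 11 members with an exact match to the ER stress element or its variant in the promoter window, 20 with neither match and 6 without an entry in the promoter table. Inexact matches were not searched, and Txndc5 and Txndc11, which hold the XBP1-type element, are among the 20. The 11 lie between −0.63 and −0.11, and the 20 lie on both sides of 0.

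Libraries of 1 genotype also differed from each other. Chaperones deviated from their means over libraries by −0.31 and −0.04 in DKO and by 0.22, −0.12 and 0.24 in WT (log2), and disulfide isomerases by −0.36 and −0.13 in DKO and by 0.33, −0.11 and 0.26 in WT. WT replicate 2 was thus nearer to DKO replicate 2 than to the other WT libraries in both groups. Sensors and transcription factors deviated by 0.08 and 0.02 in DKO and by −0.03, 0.01 and −0.09 in WT. DKO replicate 1 lay below all WT libraries in 17 of 37 members (26.4% of all genes tested) and above them in 4 (26.6%), and DKO replicate 2 below in 11 and above in 4 (21.5% of all genes each way). The first pair of counts is also what remains without DKO replicate 2, where 53% of all genes do not overlap and the median of the members was −0.29. DKO replicate 1, which kept more Relb and Nfkb2 transcript, also had more T cell and naive B cell transcript, and so had WT replicate 2. With the mean log2 level of the T cell markers as a covariate, 25 of 37 members were lower, with a median of −0.12. Without WT replicate 2, 21 members lay below and 4 above with no overlap, where 20.2% and 21.1% of all genes did (41.2% in all), and the median was −0.28. Without both WT replicate 2 and DKO replicate 1 the counts were 23 and 7, where 31.9% and 31.2% of all genes did (63.1% in all), with 1 DKO library left. The disulfide isomerases were highest in WT replicates 1 and 3, which had the lowest and the highest plasma cell sum, most of it Ighm. Single genes of that list differed in order. Igj was at 3128 and 4511 in DKO and 5365, 3289 and 4921 in WT, also highest in WT replicates 1 and 3. Ighg1 was at 4821 and 5648 in DKO and 1739, 4037 and 8240 in WT, lowest in WT replicate 1. The part of plasma cells in these values was not tested. The libraries fell in the same order by their share of mitochondrial reads as by the deviation of the chaperones, and of the 11 genes with an ER stress element, from DKO replicate 1 at the low end through WT replicate 2, DKO replicate 2 and WT replicate 1 to WT replicate 3. With scaling factors taken from reads outside the mitochondrial genome, 26 members were lower and the median was −0.20. The part of the mitochondrial share in these values was not tested.

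**Figure D5:**
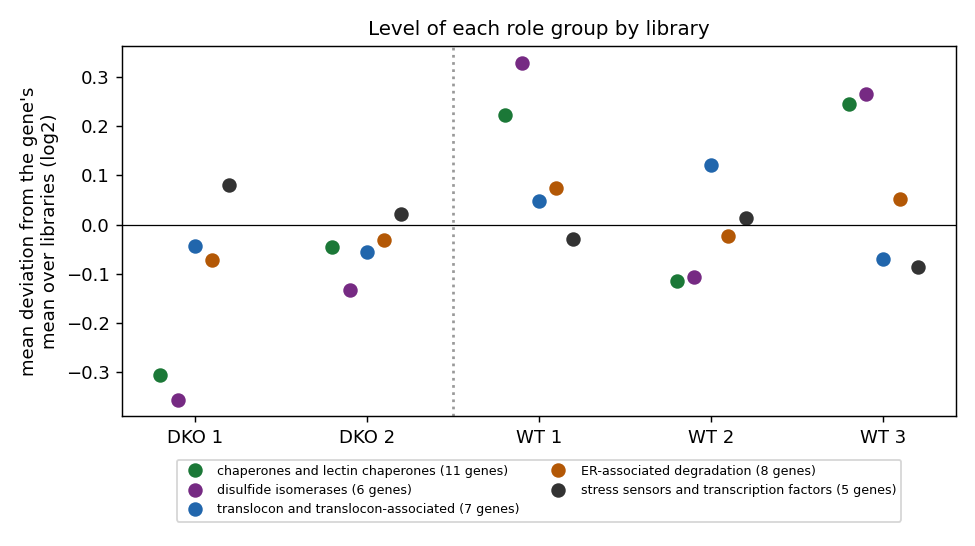
Mean deviation (log2) of each role group from its genes' means over the 5 libraries, with 1 point per group in each DKO and WT library. Chaperones and disulfide isomerases are lowest in DKO replicate 1 (−0.31 and −0.36) and highest in WT replicates 1 and 3, and WT replicate 2 (−0.12 and −0.11) lies between the DKO libraries for chaperones and just above both for isomerases.

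Related lists covered regulators and targets of the response, the rest of the secretory pathway, and chaperones of the cytosol and mitochondria. None of their genes passed in limma (0 of 104 tested, from 116 listed). Of these 80 were lower and 24 higher in DKO, with a median log2 fold change of −0.17. At an unadjusted p under 0.05 there were 3 lower and 3 higher, against 2.37% of all genes lower and 3.69% higher. Xbp1, the transcription factor made active when IRE1 splices its transcript, was at 1459 and 1891 in DKO and 2100.4, 1911 and 2669 in WT, just without overlap (−0.41 ± 0.23, adjusted p = 0.864, limma). Gene counts do not separate the spliced form. Ppp1r15a, the PERK-induced phosphatase subunit GADD34, was at 163 and 214 in DKO and 136, 144 and 92.3 in WT, above all WT values (0.61 ± 0.34, adjusted p = 0.864, limma). Of the 10 listed regulators of the response, these 2 included, 5 were lower and 5 higher.

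Glycosylation genes were lower in 13 of 14 (median −0.24), with the oligosaccharyltransferase subunit Rpn2 at 1009.7 and 1336 in DKO and 1582, 1628 and 1562 in WT and Krtcap2 of the same enzyme at −0.77 ± 0.44. Other degradation factors were lower in 13 of 14 (median −0.16). Ube2j1, the ubiquitin-conjugating enzyme of the ER membrane, was at 5089 and 6903 in DKO and 11709, 8007 and 9757 in WT (−0.71 ± 0.24, adjusted p = 0.823, limma). Genes of targeting and signal peptide removal were lower in 12 of 14 (median −0.13), with Srp14 and Srp68 of the signal recognition particle at −0.65 ± 0.24 and −0.40 ± 0.21.

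Transport from the ER to the Golgi was lower in 13 of 18 (median −0.10). The coat gene Sec24a was at 1976 and 2893 in DKO and 1503, 1608 and 1056 in WT, above all WT values (0.81 ± 0.26, adjusted p = 0.823, limma). Kdelr3, a receptor that returns ER proteins, was at 38.5 and 32.2 in DKO and 7.49, 1.03 and 5.77 in WT. Redox and folding enzymes outside the 37 were lower in 7 of 11 (median −0.13). Ero1lb, an oxidase that recharges the disulfide isomerases, was higher in DKO, at 5386 and 5332 against 3688, 4104 and 4124 in WT (0.43 ± 0.18, adjusted p = 0.823, limma), opposite in sign to the isomerases themselves. Qsox1 had a log2 fold change of −0.88 ± 0.50. Targets of PERK and ATF4 were lower in 6 of 9 tested (median −0.40). In none of these targets did both DKO values lie below all WT values, where 11% of all genes did. In 2 both lay above, where 12.5% did. Their mean deviation was −0.52 and 0.12 in DKO and 0.08, −0.04 and 0.36 in WT (log2). The low mean of DKO replicate 1 rests in part on Atf3 and Chac1, both at 1.75 normalized counts (2 reads) there. Atf3 was at 45.4 in DKO replicate 2 and 36.4, 47.5 and 34.6 in WT. Chac1 was at 15.7 in DKO replicate 2 and 34.3, 8.25 and 39.4 in WT. DKO replicate 1 lay below all WT libraries in 5 of the 9 targets (26.4% of all genes) and above them in 2 (26.6%). Phgdh had a log2 fold change of −0.48 ± 0.26 and Cth of 1.47 ± 0.77. Chaperones of the cytosol and mitochondria were lower in 11 of 14 (median −0.11), with Hsp90ab1 at −0.31 ± 0.29 and Hspe1 at 0.22 ± 0.21.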

How the data were processed

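Per the labels' protocols, RNA was amplified (NuGEN Ovation) before sequencing. Tools listed in the submitters' processing notes are TopHat2 2.0.4, CASAVA 1.8.2 and Cufflinks 2.0.2, with mm9 as build. How reads were counted and scaled, with which annotation and strand setting, is not given in the sources used here. Values as deposited by the authors are a signal per gene and library, a read count divided by 1 factor per library: at least 99.99% of values above 0 in each library were whole multiples of the smallest value (tolerance 0.01), so whole reads were recovered. Members had between 72 and 16090 reads in any library.

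Genes with a mean of at least 10 were tested with limma 3.58.1 (R 4.3.3) on log2(value + 1) with a mean-variance trend, 3 residual and 5.92 prior degrees of freedom. EdgeR 4.0.16 and DESeq2 1.42.0 were run on the recovered reads. The scripts were tested on simulated data. The members and lists were chosen with earlier results of these data known. Values per library are given for members whose genotypes do not overlap and for the 3 smallest p of each role group, and up to 2 genes are named per pathway list, of which 1 is not reported here. Hspa5, Sdf2l1, P4hb, Ssr4, Atf3 and Chac1 fall outside this rule and were picked with their values in view, as were the marker genes given by name. Lengths (exon union), near-identical copies (at least 200 aligned bases at 90% identity, minimap2) and overlaps come from GENCODE M21, and promoters from RefSeq, both on GRCm38, another build than the authors used. Their coordinates apply to the printed sequences only.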

Additional observations from a re-analysis of the deposited data

How the results depend on the processing

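In all 21 alternatives 0 members passed the adjusted threshold, between 22 and 27 were lower in DKO and the median log2 fold change kept its sign. That median moved beyond the SD between WT libraries (0.09, log2) without DKO replicate 2 (−0.29) and without WT replicate 2 (−0.28), and in no other alternative. With 1 library left out it ran from −0.29 to −0.10. Not all 21 alternatives could move these values. Changing the minimum value or using the robust fit leaves every member's fold change as it was. The replicate number as a block gives the same fold changes as leaving out WT replicate 3, the only library with that number. Members without overlap numbered 11 (23.4% of all genes). There were 25 without WT replicate 2, where 41.2% of all genes did not overlap, and 21 without DKO replicate 2, where 53% did not. Without both WT replicate 2 and DKO replicate 1 there were 30 (63.1%). The count was 9 after the length and GC correction and 12 with quantile scaling. It was between 12 and 15 without WT replicate 1, WT replicate 3 or DKO replicate 1. Shares of all genes were not computed for the settings in the last 2 sentences, so their counts are not read as a result. The number of all genes called in limma, 0, became 29 in DESeq2, 2 with library weights, 1 with the T cell marker covariate and 0 or 1 with 1 library left out. The replicate number as a block gave 36 called genes. The replicate numbers are not stated to mark a shared litter or day, and only 2 numbers occur in both genotypes, so the block is not treated as a paired design. Deviations of libraries with the same number correlated at 0.00499 and −0.28. With 2 DKO libraries, whose deviations from their mean mirror each other, these correlations cannot decide whether libraries were paired. Of the 37 members 16 had another sign in at least 1 alternative, among them Canx, Creld2, Pdia6 and Txndc11 without DKO replicate 1 and Syvn1 without WT replicate 3 or with the block. Among members with values per library these were Sec61g (−0.18 with the replicate block, −0.18 to 0.66 with 1 library left out) and Atf4 (−0.0095 to 0.28 with 1 library left out, and −0.0049 without both WT replicate 2 and DKO replicate 1), besides Ssr4, whose difference was close to 0; the cause was not tested. The length and GC correction was added after seeing the data. With 3 against 2 libraries the median SE of a member was 0.23 (log2), which limits what could be detected.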
